A study of Mus musculus with 2 samples.

Results

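The proteasome genes described here are the mouse genes whose array symbol begins with Psma, Psmb, Psmc, Psmd, Psme, Psmf or Psmg followed by a digit. The symbol rule found 49 of the 18193 named genes on the array, read by 103 probe sets, where a probe set is the group of short oligonucleotides that reports on 1 transcript. Of these 49 genes, 47 encode proteasome subunits, activators, an inhibitor or assembly chaperones. The other 2, Psmc3ip and Psme3ip1, share only the first letters of the symbol and were kept apart. A further probe set carried 2 symbols and was given no gene value. The symbols alone chose the members, but the family was picked for description with earlier results of these arrays in view, so its values are described without any test.

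The proteasome is the large protease that degrades proteins tagged with ubiquitin. Its barrel-shaped core is built from rings of alpha subunits, which form the gate, and rings of beta subunits, some of which carry the peptide-cutting sites. A cap sits on the barrel, where its base of ATPases unfolds the substrate and its lid removes the ubiquitin chain. Under interferon, cells replace the catalytic beta subunits with immunoproteasome counterparts that favour peptides for antigen presentation. In the liver, as in other tissues, the proteasome removes damaged and short-lived proteins, and the transcription factor encoded by Nfe2l1 is known to raise the transcription of its subunit genes when proteasome capacity falls short.

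Liver RNA of male 129SvEJ mice aged 8 weeks was measured on 2 expression arrays. One group was wild type and the other pparalpha-/-, that is, without the nuclear receptor PPARα that fenofibrate activates. Both groups ate chow with 0.2% fenofibrate for 7 days, and the RNA of 3 mice per genotype was pooled for 1 array. Mice without the drug were not analysed here, so the comparison joins a difference between genotypes with any difference in their response. The labels do not name the part of Ppara that was disrupted.

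With 1 array per genotype there is no replicate, no test and no p-value, and each value below is a single measurement. Signals are intensities in array units. The median signal over all probe sets other than controls served as the floor of an array, 287.8 in wild type and 269.4 in null. The log2 ratio is the log2 of the wild-type signal over the null signal after raising signals under the floor to it, so positive values mean a higher signal in wild type. Each gene was read from its brightest probe set. The targeted gene gave 7957 in wild type and 3414 in null, and its other 2 probe sets were also higher in wild type. Hepatocyte markers were bright, with albumin (Alb) at 192642 in wild type against 212369 in null. As deposited, the 6 hepatocyte markers measured all had negative log2 ratios, and their median was -0.26. Alb was positive after quantile normalization (0.03) and equal after loess (0.00). When the arrays were scaled to spiked controls, as described below, 4 of the 6 were positive, where all measured genes gave 79.6%. Over the 10060 genes measured on both arrays the log2 ratio had a median of -0.02, a 5th percentile of -0.78 and a 95th percentile of 0.88.

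Most proteasome genes gave a slightly higher signal in wild type than in null, while the immunoproteasome subunits Psmb8 and Psmb10 gave a lower one. All 47 genes reached the floor on at least 1 array and 45 on both. Of these 45, 39 had a positive log2 ratio, or 86.7%, against 47.8% of all genes measured on both arrays. The median over all 47 was 0.23, a 1.17-fold difference, against 0.00 over the 13041 genes measured on at least 1 array. The differences were small. At 2-fold or more, 1 member was higher and 0 were lower, where all measured genes gave 4.99% higher and 2.8% lower. At 1.5-fold or more, 2 members were higher (4.26%) and 1 was lower (2.13%), where all measured genes gave 14.8% and 11.0%. The members' shares past these folds lay under the shares of all measured genes, while their share of positive values lay above it. Their log2 ratios had an SD of 0.30 across members, against 0.54 across all genes measured on both arrays. The mitochondrial ribosomal proteins described below had a similar SD of 0.28.

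The level of the whole array pair bears on these signs. Rescaling the arrays so that the 18 spiked hybridization controls had a median log2 ratio of 0 moved the median of all measured genes to 0.38 and that of the members to 0.61. At that scaling 26 members passed 1.5-fold upwards and 0 downwards, against 33.7% of all measured genes higher and 3.12% lower, and 43 of 45 members were positive, against 80.0% of all genes measured on both arrays. The distance between the median of the members and that of all measured genes was 0.23 at either scaling. This distance could not change, because the rescaling shifts all log2 ratios alike. Removing the signal-dependent trend by loess gave 7 members at least 1.5-fold higher and 1 lower, where all measured genes gave 13.7% and 11.5%.

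**Figure D1:**
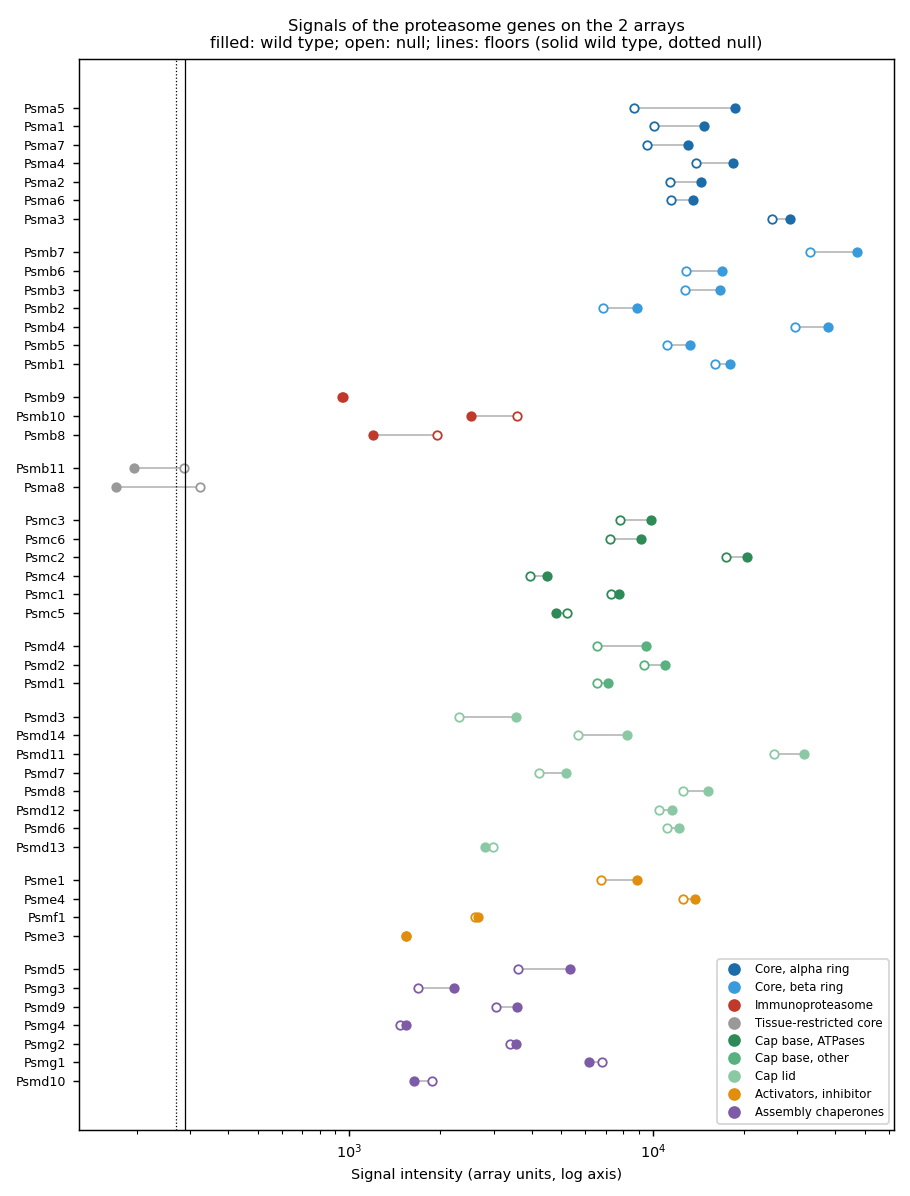
Signal intensity of each of the 47 proteasome genes on the wild-type array (filled points) and the null array (open points), on a log axis, grouped by subcomplex. Each point is 1 array and has no error bar, and vertical lines mark the floors of 287.8 and 269.4. Filled points lie to the right of open points in all 14 constitutive core genes, to the left in Psmb8 and Psmb10, and cover the open points of Psmb9 and Psme3.

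All 7 alpha ring genes of the core were higher in wild type, and their median log2 ratio was 0.40. These subunits form the outer rings and the gate of the barrel and carry no catalytic site. Psma5 stood out with 18657 in wild type and 8692 in null, which is 2.15-fold. A second bright probe set of Psma5 gave 12976 and 8030.2, or 1.62-fold. Its dim probe set pointed the other way, with 94.7 in wild type, under the floor, and 357.2 in null. Both bright probe sets of Psma5 thus lay above null, by different amounts, and the 2-fold call rests on 1 of them.

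Psma1 read 14769 against 10131.5 (wild type against null), a log2 ratio of 0.54. For Psma7 the signals were 13088 and 9584.5 (0.45), and its other probe set gave 12623 and 8030.1 (0.65). Psma4 read 18360 against 13867 (0.40) and Psma2 14427 against 11423 (0.34). The 2 remaining alpha genes were closer to equal. Psma6 had 13627 against 11532 (0.24), although its other probe sets above the floor gave larger log2 ratios of 0.51 and, at a dim probe set of 1281 against 515.2, 1.31. Psma3 had 28447 against 24761 (0.20), and its dim probe set gave 0.18.

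The beta ring was also higher in wild type at all 7 constitutive genes, over a narrower range of log2 ratios, from 0.16 to 0.52, with a median of 0.38. Psmb5, Psmb6 and Psmb7 carry the chymotrypsin-like, caspase-like and trypsin-like sites, and the other 4 subunits are structural. Among the catalytic genes, Psmb7 gave 47237 in wild type and 32889 in null, or 1.44-fold. Psmb6 gave 16872 and 12857, or 1.31-fold. Psmb5 had the smallest difference of the catalytic genes, at 13323 and 11145, or 1.20-fold.

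The structural beta genes lay in the same range. Psmb3 read 16696 in wild type and 12744 in null (log2 ratio 0.39), with a second probe set at 0.27. Psmb2 read 8876 against 6838 (0.38), from a single probe set. Probe sets disagreed for Psmb4, where the brightest gave 37774 against 29422 (0.36) and another 9884 against 11265 (-0.19). For Psmb1 they had 1 sign but very different sizes, since the brightest gave 17953 against 16080.4 (0.16) and dim ones 978.2 against 339.4 (1.53) and 792.1 against 415.0 (0.93). Over both rings, 10 of the 14 constitutive core genes lay above 0.28, the 75th percentile of all genes measured on both arrays, and 0 lay below the 25th percentile of -0.30.

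**Figure D2:**
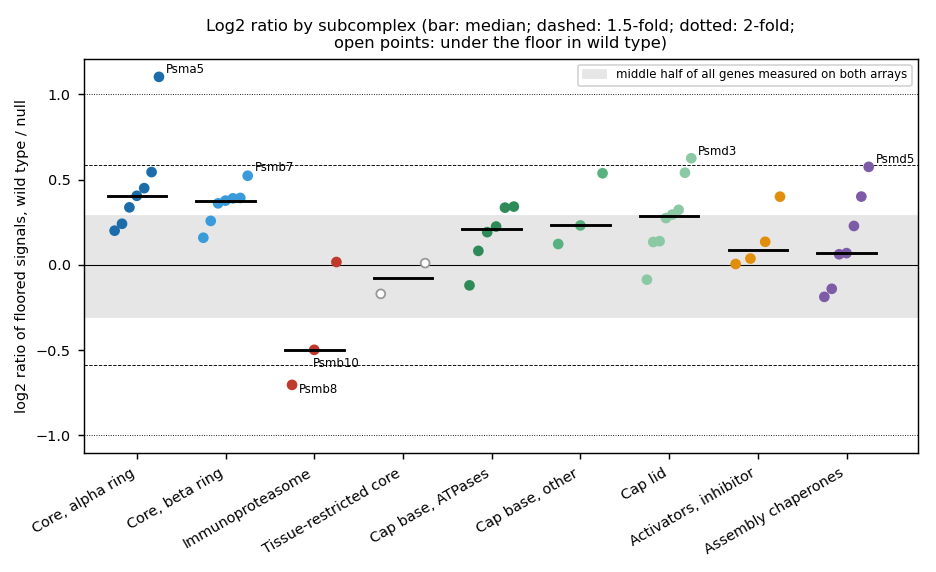
Log2 ratio of wild type over null for each of the 47 genes by subcomplex, with the median of each group as a bar. The grey band runs from the 25th to the 75th percentile of the 10060 genes measured on both arrays (-0.30 to 0.28), and the dashed and dotted lines mark 1.5-fold and 2-fold. Both core rings have medians above the band, the immunoproteasome has its median (-0.50) below it, and the medians of the chaperones and of the activators lie inside it.

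The immunoproteasome genes were the only proteasome group measured on both arrays whose median was negative, at -0.50 for 3 genes. Psmb8, which takes the place of Psmb5, gave 1194 in wild type and 1945 in null, 1.63-fold lower in wild type. Psmb10, the counterpart of Psmb7, gave 2523 and 3563, or 1.41-fold lower. Psmb9, the counterpart of Psmb6, was nearly equal on the arrays, at 957.1 and 946.2. Psmb8 and Psmb10 were the 2 members below the 25th percentile of all genes.

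A difference between log2 ratios of a pair of genes does not depend on the level to which an array is scaled. Psmb8 lay 0.96 under its constitutive counterpart Psmb5 on the log2 scale, and Psmb10 lay 1.02 under Psmb7. Psmb9 lay 0.38 under Psmb6, a smaller distance that comes from Psmb6 (0.39), since Psmb9 itself was at 0.02. These differences, taken up after the values were seen, ran from -0.96 to -0.89 for Psmb8, from -1.02 to -0.95 for Psmb10 and from -0.39 to -0.32 for Psmb9 over the ways of processing that gave a value. Only quantile normalization and loess could move them. The other alternatives shifted both genes of a pair alike, left them unchanged or removed a gene, so the narrow ranges say little. Relative to its counterpart, the wild-type signal was thus 1.95-fold lower for Psmb8, 2.03-fold for Psmb10 and 1.30-fold for Psmb9.

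Genes that accompany the immunoproteasome in interferon responses and antigen processing were also mostly lower in wild type at the deposited scaling. Of the 16 measured, 12 had a negative log2 ratio and 4 a positive one, where 49.6% of all measured genes were negative. Their median was -0.28, and 4 were at least 2-fold lower, where all measured genes gave 2.8%. With the scaling to the hybridization controls 7 of 16 were negative and 2 at least 2-fold lower. All measured genes then gave 20.4% negative and 0.836% at least 2-fold lower. The median of the list was 0.10 beside 0.38 over all measured genes, and B2m, H2-D1, H2-K1, Tapbp and Irf1 turned positive. Raising the floor to the 75th percentile of each array left 12 measured, none of them (0) lower by 2-fold. Taking each gene's median probe set value left 2 such genes. All measured genes gave 1.33% and 2.04% lower by 2-fold at these 2 settings. The chemokine gene Cxcl9 gave 545.8 in wild type and 1233 in null, although another probe set gave 479.1 and 118.6. The interferon-induced genes Ifit1 (at least 3.05-fold lower, 201.2 against 878.1) and Ifit3 (at least 3.06-fold lower, 260.9 against 881.1) were under the floor in wild type, so their bounds follow the floor. They were 1.08-fold and 1.09-fold with the floor at the 75th percentile and 2.77-fold and 2.78-fold with it at the brightest Bacillus control. At the Bacillus floor 3 genes of the list were lower by 2-fold, where all measured genes gave 2.58%. Tap1, whose product carries peptides into the endoplasmic reticulum, was at least 2.13-fold lower (244.5 against 612.7), while a further probe set gave 426.6 against 193.7. At the control scaling Cxcl9 was 1.74-fold and Tap1 at least 1.64-fold lower. Igtp, an interferon-inducible GTPase, was 1.61-fold lower. The interferon regulatory factor Irf1 gave 1603 against 1838 (log2 ratio -0.20). At the other end, Ube2l6, the conjugating enzyme of the ubiquitin-like protein Isg15, was 1.39-fold higher in wild type (1461 against 1047). Gbp2 was 1.23-fold higher (377.1 against 306.1), close to the floor on both arrays. Its log2 ratio was -0.16 with the floor at the brightest Bacillus control.

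Markers of Kupffer cells, the resident macrophages of the liver, were also mostly lower in wild type at the deposited scaling, as were the hepatocyte markers. Of 6 Kupffer cell markers measured, 5 were lower in wild type, led by Cd5l (1909.8 against 4052) and Clec4f (1850.2 against 3003). Cd68 was the higher Kupffer cell marker (373.5 against 204.3, under the floor in null). The signals of the Kupffer cell markers summed to 14856 in wild type and 21593 in null over 7 genes, and Marco was under the floor on both arrays. At the control scaling 4 of the 6 were lower in wild type. Of all measured genes, 49.6% were negative as deposited and 20.4% at the control scaling. Among 9 markers of other leukocytes the sums were 2595 and 2685. Ptprc, which is expressed by all leukocytes, was higher in wild type (822.8 against 363.5) and Cd8a was lower (461.0 against 828.7). With the floor at the 75th percentile of each array, their log2 ratios were only 0.01 and -0.03. The other probe set of Ptprc, and Cd3e, Cd3g, Cd79a and Cd79b, were under the floor on both arrays. The part of these cells in the values of Psmb8 and Psmb10 was not tested. In RNA of whole liver, fewer cells of a type and less RNA per cell cannot be told apart.

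**Figure D3:**
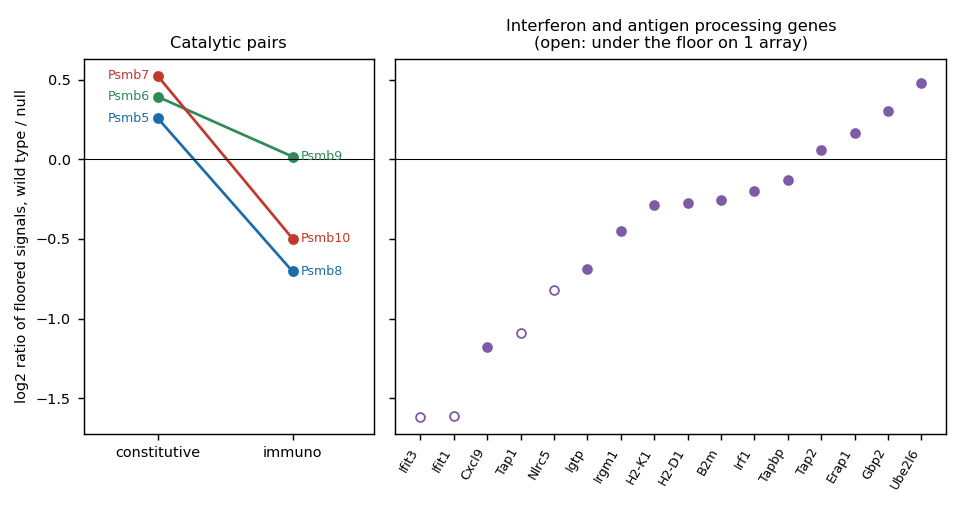
Left, log2 ratios of the 3 constitutive catalytic genes joined to their immunoproteasome counterparts. Every line falls, by 0.96 for Psmb8, 1.02 for Psmb10 and 0.38 for Psmb9. The fall to Psmb9 comes from Psmb6 (0.39), since Psmb9 itself lies at 0.02. Right, log2 ratios of the 16 measured interferon and antigen processing genes in order, with open points for genes under the floor on 1 array. Of the 16, 12 lie under 0 at the deposited scaling and 7 would at the control scaling. Of all measured genes, 49.6% and 20.4% do.

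The core subunits made mainly in other tissues were near the floor. Psma8, the alpha subunit of the testis, gave 170.4 in wild type and 323.8 in null, so that it fell below the floor of the wild-type array and was at least 1.13-fold lower on it. Psmb11, the beta subunit of the thymus, gave 195.3 and 285.8, and no fold is given since its null signal does not exceed the wild-type floor. On the null array both lay under the brightest of the 27 Bacillus control probe sets (422.4), which report on transcripts absent from mouse. The 4 germ cell markers, among them Ddx4 and Sycp3, were under the floor on both arrays.

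At 15 of its 17 genes the cap was higher in wild type. Its median log2 ratio was 0.23, less than the 0.38 of the constitutive core, a distance that was not tested. In the base, 5 of the 6 ATPase genes were positive, with a median of 0.21. Psmc3 gave 9909 in wild type and 7820 in null (0.34) and Psmc6 9157 against 7258 (0.34). The dimmer probe sets of Psmc6 gave 0.17 and -0.14. Psmc2 read 20427 against 17483 (0.22), with a bright second probe set at 0.15 and a dim one at -0.29.

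The other ATPase genes differed little between the arrays. Psmc4 had 4497 in wild type and 3938 in null (0.19), while its second probe set gave 2451 against 3647 (-0.57), so its direction depends on the probe set. Psmc1 had 7738 against 7311 (0.08). Psmc5 was the only ATPase gene with a negative value, at 4803 against 5221 (-0.12), which turned to a positive 0.26 when the arrays were scaled to the hybridization controls.

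Among the other base genes, Psmd4, a receptor for ubiquitin chains, was 1.45-fold higher in wild type (9501 against 6549). Its second probe set gave 8880 against 6516, or 1.36-fold, close to the first. Psmd2 and Psmd1, large scaffold proteins of the base, gave smaller log2 ratios of 0.23 (10989.8 against 9365) and 0.12 (7128 against 6549).

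The lid was positive at 7 of 8 genes, with a median of 0.28. Psmd3, a structural lid subunit, was 1.54-fold higher in wild type (3542 against 2297) and is the second member past 1.5-fold. Psmd14, the metalloprotease that cuts ubiquitin chains off the substrate, was 1.45-fold higher (8237 against 5666). Its partner Psmd7 gave 5191 against 4232, or 1.23-fold. The catalytic lid gene was thus among the higher ones and its partner in the middle.

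The scaffold gene Psmd11 had 31412 in wild type and 25123 in null (0.32), and its other probe sets measured on both arrays gave 0.33, 0.16 and 0.14. Psmd8 had 15263 against 12622 (0.27). Psmd12 had 11589 against 10527 (0.14) and Psmd6 12219 against 11135 (0.13), with 0.31 at a dim probe set. Psmd13 was the only lid gene with a negative value, 2809 against 2983 (-0.09). Its 3 other probe sets gave 0.10, -0.02 and -0.47, so that its probe sets lay on both sides of 0.

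Activators and the inhibitor had a median of 0.09 over 4 genes, inside the middle range of all genes. Psme1, a subunit of the interferon-inducible ring that opens the core, was 1.32-fold higher in wild type (8882 against 6733). Its direction is opposite to that of Psmb8 and Psmb10, with which it is known to be induced by interferon. The probe set that carried 2 symbols, Psme2b and Psme2, was slightly lower in wild type (5515.4 against 5762.1) and has no gene value. Psme3, which forms the nuclear activator ring, was equal at its brightest probe set (1540.5 against 1535) and 1.71-fold lower at another (520.8 against 888.2). Psme4, a single-chain activator, gave 13776 against 12544 (0.14), and its other probe sets measured on both arrays gave 0.25 and -0.01. Psmf1, which binds the core and was described as its inhibitor, gave 2667 against 2599.5 (0.04), while 2 dimmer probe sets gave 0.51 and 0.78.

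Assembly chaperones had a median of 0.07 over 7 genes, with 5 positive and 2 negative. The base chaperone Psmd5 had the largest value, at 5355 in wild type and 3596 in null, or 1.49-fold. Of the other base chaperones, Psmd9 gave 3561 against 3041 (log2 ratio 0.23), with a second probe set under the floor in wild type (76.9 against 609.4). Psmd10, also known as gankyrin, gave 1641 against 1869 (-0.19). The 3 base chaperones therefore spread over both directions.

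The chaperones of the alpha ring work as pairs. Psmg1 gave 6161 in wild type and 6791 in null (-0.14), and its partner Psmg2 3549 against 3399.7 (0.06), with other probe sets of Psmg2 at -0.25 and, under the floor in null, 0.71. Psmg3 was 1.32-fold higher in wild type (2221 against 1683), and its partner Psmg4 nearly equal (1540.1 against 1468.5). The negative values of Psmg1 and Psmd10 became positive, at 0.24 and 0.19, under the scaling to the hybridization controls. Of the 2 genes that are no subunits, Psmc3ip gave 493.6 against 445.7 and Psme3ip1 1284 against 1694.

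Probe sets of 1 gene give the only measure of scatter in this pair of arrays. Among the 100 probe sets of the 47 genes, 73 were above the floor on both arrays, 10 on 1 array and 17 on neither. Of the 73, 58 were positive and 15 negative, 3 were at least 2-fold higher and 0 at least 2-fold lower. In 18 genes, 2 or more probe sets (46 in all) were above the floor on both arrays, and these had 1 sign in 10 genes and both signs in 8. The pooled SD of log2 ratios within a gene was 0.34 for these genes and 0.42 for the 3917 genes of the whole array with such probe sets. Of the 45 members measured on both arrays, 35 had a log2 ratio within 0.42 of 0, 8 were higher in wild type by more (Psma5, Psmd3, Psmd5, Psma1, Psmd14, Psmd4, Psmb7 and Psma7) and 2 lower (Psmb8 and Psmb10). For a single gene among the 35, the difference is thus no larger than the scatter between probe sets over the whole array. Past the smaller SD of 0.34 of the members' own probe sets, 15 members were higher in wild type and 2 lower. The shares of all genes past these distances are not given here. Variation among mice or pools is not part of this scatter. Close relatives in sequence can share probes. Of the 47 genes, 15 were read from a probe set ending in _a_at, _s_at or _x_at, the suffixes for probes that match several transcripts. Most of these end in _a_at, where the transcripts belong to the same gene. Only those of Psmd11 and Psme4 end in _s_at, and none ends in _x_at.

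**Figure D4:**
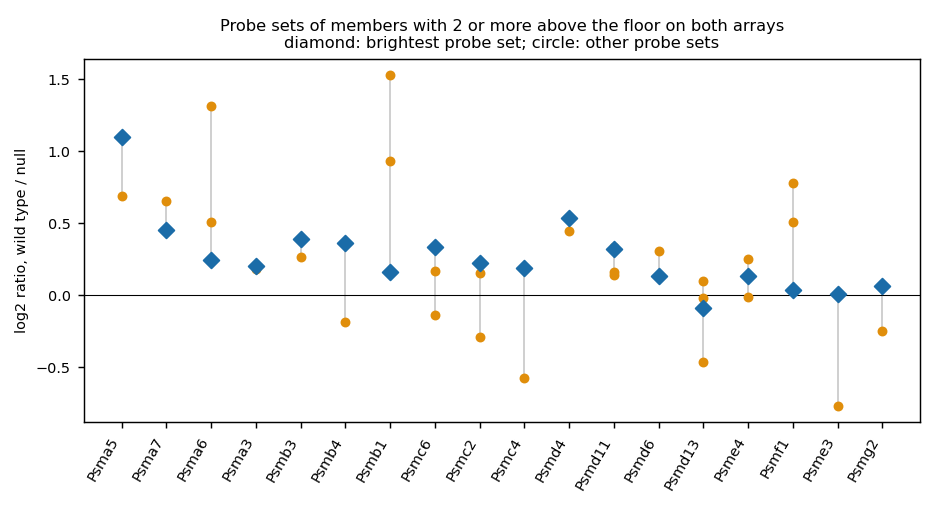
Log2 ratio of each probe set for the 18 genes that had 2 or more probe sets measured on both arrays, with a diamond for the brightest and circles for the others. The vertical lines join the probe sets of a gene, and they cross 0 in 8 genes, among them Psmb4, Psmc4 and Psme3, while the widest span belongs to Psmb1 (0.16 to 1.53).

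Beside the subunits stand genes that regulate, load or serve the proteasome. Of 22 such genes, all measured on both arrays, 13 were positive and 9 negative, with a median of 0.11, or -0.04 over the 20 left without probe sets ending in _x_at, _s_at or _a_at. Nfe2l1 was the only one at least 2-fold apart. It gave 2393 in wild type and 588.6 in null, or 4.07-fold higher, from its single probe set, where the null signal was 2.18 times the floor. Its ratio was 2.92-fold with a floor at the 75th percentile of each array, and at least 4.07-fold in the other 8 alternatives that could read this probe set. Its relative Nfe2l2 gave 4247 against 3824 (log2 ratio 0.15). Any bearing of Nfe2l1 on the subunit genes was not tested, and 1 array per genotype gives no way to relate them.

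The segregase Vcp, which extracts ubiquitin-tagged proteins, was 1.33-fold higher (23765 against 17811), with a dim probe set the other way (496.3 against 690.4), and the arsenite-inducible Zfand2a was 1.42-fold higher (1474 against 1041). Pomp, the chaperone of the maturing core, gave 17591 against 14947 (0.23). The proteasome-bound deubiquitinases Usp14 and Uchl5 gave log2 ratios of 0.24 and -0.01, and the other 3 probe sets of Usp14 were all lower in wild type. At the low end, the ubiquitin receptor gene Ubqln4 gave 830.9 against 1414 and, at another probe set, 1045 against 392.1. Sem1, a small lid subunit outside the symbol rule, gave 5174 against 8411 at 1 probe set and 5302 against 4754 at the other. The probe sets of both genes disagreed in sign, so no direction is given.

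Genes of ubiquitin activation and conjugation showed no common direction, with 9 of 17 measured genes positive and 8 negative. Their median of 0.02 changed sign between alternatives, from -0.08 with the median over probe sets to 0.40 with the control scaling. The conjugating enzyme gene Cdc34 was 1.53-fold higher in wild type (9216 against 6030.2) and Ube2l6, named above, followed. Ube2s was 1.79-fold lower (1856 against 3319) and Ube2g2 1.49-fold lower (1621 against 2411).

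As a further large complex made of many subunits, the mitochondrial ribosomal proteins had a median log2 ratio of 0.10 over 76 genes, all measured on both arrays. Their SD was 0.28, 6.58% were at least 1.5-fold higher, and 0 passed 2-fold in either direction. A narrow spread was thus not particular to the proteasome genes. Of the 76 genes, 49 were positive (64.5%) and 17 (22.4%) lay above the 75th percentile of all genes, against 20 of 45 proteasome genes (44.4%). The difference between these families has no test in a pair of arrays.

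Promoter letters were read for the members because most of them had 1 sign. Promoter windows of 300 bases, from 250 before to 50 after the RefSeq gene start on GRCm38.p6, were found for 39 of the 47 genes, in 41 windows. The letters TGACNNNGC, the core of the antioxidant response element through which the Nfe2l1 product is known to act, were sought on both strands and occurred in 6 of these windows, or 14.6%, against 12.4% of all 32851 windows. The 6 genes were Psmb5, Psmb6, Psmc6, Psmd9, Psmd12 and Psme4. CCAAT, the letters of the box bound by nuclear factor Y, occurred in 34.1% of the members' windows and 37.4% of all. A pair of GAAA copies 2 bases apart, as in interferon-stimulated response elements, occurred in 5 windows (12.2%), against 3.44% of all. The 5 genes were Psmb3, Psmd4, Psmd9, Psme1 and Psmg4. Of the immunoproteasome catalytic genes, Psmb9 was read, and it held CCAAT but not this pair. For Psmb8 and Psmb10 no absence is stated, since not every member had a window. A pair of AGGTCA copies 1 base apart, a strict form of the direct repeat bound by PPARα with its partner RXR, occurred in 0 of the 41 windows and in 0.0396% of all. The antioxidant response share lies close to the share of all windows, and the interferon share rests on 5 windows. The strict AGGTCA repeat occurred in only 13 of all 32851 windows, so its absence from 41 windows says nothing about the members.

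The stretches below are shown since they hold the antioxidant response letters within 50 bases of the start. They come from 2 catalytic core genes and a base chaperone, each higher in wild type at its brightest probe set. A second probe set of the chaperone gene Psmd9 was at least 2.12-fold lower (76.9, under the floor, against 609.4). Psme4 also has these letters within 50 bases, but its match begins 7 bases before the start and runs across it, and is not shown. Capitals mark the matching letters, and each stretch reads 5′ to 3′ in the direction of the gene and ends before the gene start. The first match begins 47 bases before the start of Psmb5 (chr14:54618004-54618072, minus strand), the next 9 bases before that of Psmb6 (chr11:70525318-70525356, plus strand) and the last 31 bases before that of Psmd9 (chr5:123228129-123228189, plus strand).
Psmb5: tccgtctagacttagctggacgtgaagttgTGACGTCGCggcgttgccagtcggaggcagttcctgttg
Psmb6: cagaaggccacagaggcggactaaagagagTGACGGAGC
Psmd9: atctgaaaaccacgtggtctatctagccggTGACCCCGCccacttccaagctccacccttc

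The interferon letters are shown for Psmd4 and Psmb3, whose signals were higher in wild type, opposite to Psmb8 and Psmb10. They lie on the opposite strand in both, starting 80 bases before the start of Psmd4 (chr3:95042655-95042724, minus strand) and 163 before that of Psmb3 (chr11:97703241-97703310, plus strand). Psmd9 also has the interferon letters, 159 bases before its start on the same strand, and is not shown. Those of Psme1 and Psmg4 begin after the start. A match of letters is a description of the sequence and shows no binding.
Psmd4: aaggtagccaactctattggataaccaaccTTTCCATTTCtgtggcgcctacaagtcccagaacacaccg
Psmb3: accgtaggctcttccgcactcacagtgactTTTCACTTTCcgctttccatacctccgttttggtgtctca

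**Figure D5:**
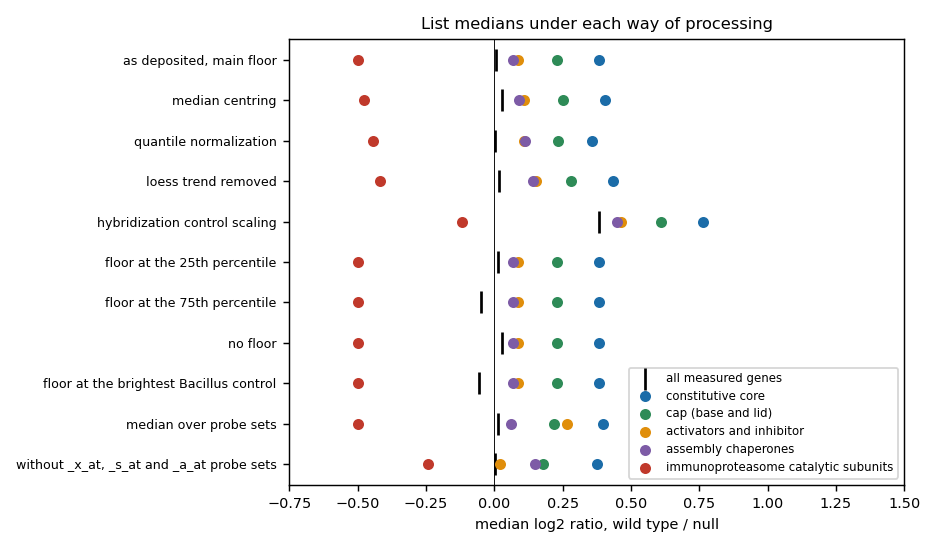
Median log2 ratio of 5 groups of proteasome genes (coloured points) and of all measured genes (black ticks) for the values as deposited and for each of the 10 alternatives. The constitutive core lies right of the tick and the immunoproteasome left of it in each row, and scaling to the hybridization controls moves all points to the right, the tick to 0.38 and the core to 0.76.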

How the data were processed

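The authors' deposited values are linear signal intensities, 1 for each probe set on each array, made with the statistical algorithm of Affymetrix and scaled to a target of 1000, per the labels. Trimmed by 2% at either end, the mean signal was 1000.01 on both arrays. No software version or detection call was used here. Of 45037 probe sets that are not controls, 34945 had 1 symbol in the platform annotation of 2016, 932 several and 9160 none. Identifiers of all 49 members were found in RefSeq (GRCm38.p6), with 0 changed symbols. The array values name no build, so coordinates are given only for RefSeq sequences.

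Signals were used as deposited, with Python 3.11.15, numpy 2.4.6, pandas 2.3.3 and statsmodels 0.14.6 (loess span 0.3). The floor was the median of each array's probe sets that are not controls, a gene was read from its brightest probe set (mean of both log2 signals), and genes under the floor on 1 array have a bound. Fold thresholds were 2 and 1.5. Named were all members, the 2 highest and 2 lowest genes of each companion list among those measured on both arrays, companions at least 2-fold apart, a few fixed regulators of the proteasome or of interferon responses, and Ppara. Vcp, the promoter stretches shown and the mitochondrial ribosomal proteins were chosen after values were seen. The members and lists were chosen with earlier results of these data known. The number of arrays limits the precision. Alternatives were 4 scalings, 4 floors and 2 choices of probe set.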

Additional observations from a re-analysis of the deposited data

How the results depend on the processing

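The median of all members stayed positive in the 10 alternatives (0.22 to 0.61), as did those of the constitutive core (0.36 to 0.76), the cap (0.18 to 0.61), the activators (0.02 to 0.47) and the chaperones (0.06 to 0.45), and that of the immunoproteasome stayed negative (-0.50 to -0.12). All constitutive core genes were positive in 9 alternatives. Of these, the 4 floors left the core values unchanged and so could not change a sign. Median centring and the control scaling shifted all genes alike. When probe sets ending in _x_at, _s_at or _a_at were left out, 12 of 13 core genes were positive. Psma5 was then read from its dim probe set at -0.31. That omission, which also removes Psmb8, and the median over probe sets gave 0 members at least 2-fold higher. Scaling to the hybridization controls gave 2. All measured genes gave 4.88%, 4.16% and 13.5% at these settings, in that order. Members at least 1.5-fold higher numbered 7 after loess and 26 with the control scaling, where all measured genes gave 13.7% and 33.7%. Members at least 1.5-fold lower numbered 0 with the control scaling and with the omission. They numbered 2 with the floor at the 25th percentile or no floor, where Psma8 joined Psmb8. All measured genes gave 3.12%, 11.4%, 18.6% and 19.8% lower at these settings, in that order. The median of the 2 tissue-restricted genes was -0.08, and it was 0.30 with the control scaling and -0.74 with the floor at the 25th percentile or none. Floors at the 75th percentile or at the brightest Bacillus control left neither of these genes measured. No paired analysis was possible because each genotype has 1 array.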
